A study of Mus musculus with 74 samples.

Results

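Brown adipose tissue (brown fat) of mice given troglitazone for 29 days was compared with brown fat of mice given vehicle for the same time. The comparison takes 10 of the 74 arrays of the study, 5 per group, and was put together from the array titles alone. The study as a whole gave 3 compounds, fenretinide, troglitazone and Elmiron, to mice for 15 or 29 days and profiled tissues in which hemangiosarcomas, tumours of blood vessel endothelium, develop. Its time course was set up to find when changes of proliferation or hypoxia appear, at doses above the highest ones of the carcinogenicity studies. All mice used here were male B6C3F1 mice, a hybrid strain, and the labels name no mutation or transgene. Troglitazone was given daily by the oral route at 1200 mg/kg, and the vehicle mice, numbered 82 to 86, received no drug. The treated mice carry the numbers 91 to 95, so each array stands for 1 animal by its label. The sources used here give neither the composition of the vehicle nor the age of the mice.

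Troglitazone is a thiazolidinedione, a class of drug that activates the nuclear receptor PPARγ. PPARγ pairs with the retinoid X receptor and drives the genes by which fat cells take up, bind, store and burn fatty acids, and it is also present in the endothelial cells of adipose tissue. Brown fat is a heat-producing tissue: its adipocytes are packed with mitochondria and small lipid droplets, carry the uncoupling protein Ucp1, and are surrounded by a dense capillary bed that delivers lipid and oxygen.

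Values are log2 of the deposited intensity, with 1 probe set for each of 18193 genes, and a change is troglitazone minus vehicle on that scale. A gene was called when its adjusted p in limma was below 0.05. A probe set's brightness depends on its sequence, so levels are compared between arrays and never between genes. Among the 8 arrays with high Ucp1, correlations over all genes ran from 0.984 to 0.995 within a group (12 pairs) and over nearly the same range between the groups (16 pairs, 0.984 to 0.995). Arrays carry no read depth, and the number of arrays sets how precise a value can be. The deposited table holds no flag for dim or saturated probe sets, and several adipocyte genes lie close to the top of its range, so differences among them may be compressed.

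The label "brown fat" held for 8 of the 10 arrays. Ucp1 had log2 values of 15.01, 14.95, 15.11 and 14.97 in vehicle mice 83 to 86 and of 14.91, 14.93, 14.97 and 14.95 in troglitazone mice 91 to 94. It was 5.91 in vehicle mouse 82 and 8.10 in troglitazone mouse 95, the only 2 arrays below a log2 value of 10. Cidea, a lipid droplet protein of brown adipocytes, was 8.67 and 10.45 in those 2 arrays and 14.64 to 14.82 in the other 8. The mean level of 21 thermogenic genes, Ucp1 left out, was 7.73 in mouse 82 and 7.84 in mouse 95. It was 11.12 to 11.29 in vehicle mice 83 to 86 and 11.03 to 11.21 in treated mice 91 to 94. With Ucp1, which set the 2 arrays aside, the 22 genes averaged 7.65 and 7.85 in them. The same genes averaged 11.21 to 11.46 in the other 8 arrays and 7.06 to 8.89 in white fat of vehicle mice. That white fat, here and below, came from other mice, the vehicle mice of the fenretinide part of the study. The troglitazone part held no white fat. The arrays of mice 82 and 95 were therefore low in the defining markers of the labelled tissue.

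What these 2 arrays carried instead differed between them. The 18 white fat genes averaged 11.67 in mouse 82 and 11.59 in mouse 95, inside the 11.30 to 11.78 of vehicle white fat and above the 8.75 to 9.39 of the other 8 arrays. Leptin (Lep), the hormone of white adipocytes, was 12.27 and 13.21 in them and 6.55 to 9.37 elsewhere. Over all genes the array of mouse 95 correlated at 0.995 with the mean of vehicle white fat from the fenretinide part. The other 8 arrays had 0.932 to 0.956 with it. The effect of taking this reference from another part of the study was not tested. The array of mouse 82 correlated at 0.977 with white fat and also held liver genes. Its 14 hepatocyte markers averaged 12.59, against 6.74 to 7.62 in the 8 arrays, 8.63 in mouse 95 and 7.355 to 11.13 in vehicle white fat. Albumin (Alb) reached 14.61 in mouse 82. Adiponectin (Adipoq), which white and brown adipocytes share, was 14.84 and 14.93 in the 2 arrays and 14.42 to 14.59 in the rest.

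**Figure D1:**
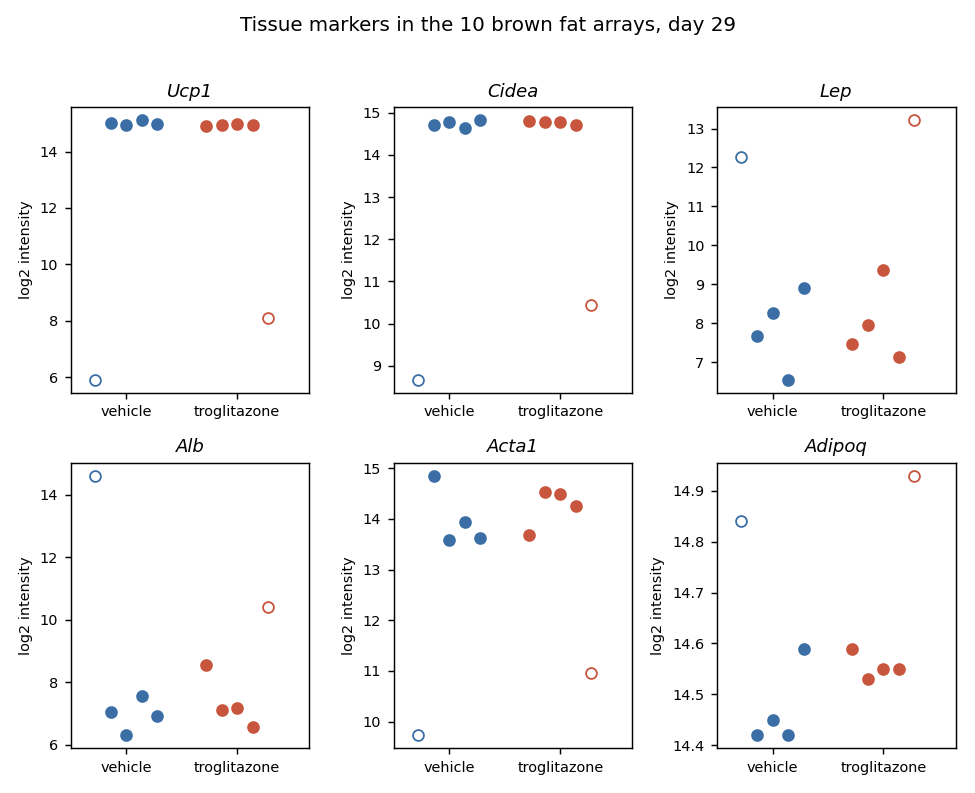
Log2 intensity of 6 tissue markers in each of the 10 arrays, vehicle mice 82 to 86 and troglitazone mice 91 to 95 from left to right, with open circles for mice 82 and 95. Ucp1 and Cidea separate those 2 arrays from the other 8, Lep and Alb are highest in them, and skeletal muscle Acta1 is high in all the others.

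Skeletal muscle was present in all 8 high-Ucp1 arrays. The mean of 15 muscle markers was 13.58, 11.09, 12.34 and 11.05 in vehicle mice 83 to 86 and 11.08, 12.48, 12.47 and 12.04 in troglitazone mice 91 to 94, and 6.19 and 6.45 in mice 82 and 95. The 2 groups of 4 overlapped in it. Macrophage markers (24 genes) ran the other way among the vehicle mice, at 7.92, 8.45, 7.81 and 8.68, and averaged 8.61, 8.92, 8.65 and 8.39 in the treated mice. Vehicle mice 83 and 85, the highest of their group in muscle markers, were the lowest in macrophage, fibroblast and matrix genes. Counts of called genes are therefore given for all 10 arrays and for the 8, 4 of each group. Values of single genes are from the 8 arrays unless stated, and the change and limma's adjusted p with all 10 arrays follow them.

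With all 10 arrays, 10 of 18193 genes (0.055%) were called, 5 higher and 5 lower. In the 8 high-Ucp1 arrays 198 genes were called (1.09%), 107 higher (0.588%) and 91 lower (0.5%), and the 10 genes called with all arrays were among them with the same sign. With all 10 arrays 197 of the 198 kept their sign and 141 had an unadjusted p under 0.05 in limma, and the 1 that turned was Cideb. Over all 18193 genes 1093 had such a p with all 10 arrays and 2831 in the 8 arrays. The list counts at an unadjusted p below are to be read beside the 2831 of 18193. The 2 groups of 4 did not overlap in 193 of the 198, whereas over all genes 6.93% did not overlap. The 198 were called on the same 8 arrays, so this separation follows from the selection and nothing is read from it. Most changes were small: 66 reached 1.5-fold and 9 reached 2-fold. The risen genes had a median change of 0.47 and the fallen genes of -0.49, beside a median of 0.009 over all genes. In the 10-array fit the calls numbered 74 without vehicle mouse 82 and 39 without troglitazone mouse 95. They numbered 3, 3, 4 and 6 without vehicle mice 83 to 86, and 4, 8, 2 and 4 without troglitazone mice 91 to 94. In the 8-array fit they numbered 79, 267, 77 and 325 without vehicle mice 83 to 86. Without troglitazone mice 91 to 94 they numbered 403, 84, 52 and 73. When the 8 day 29 arrays were fitted alone limma called 19 genes, and 18 of them are named here: Aatk, Zfp647, Bhlhb9, Rbp7, Tmem86a, Cldn5, Qpct, Orm3, Pcdh12, Myct1, Thbd, Slc20a1, Slco4a1, Acsl3, Mtss1, Gpr182, Decr2 and Gas1. Among the gene lists below, the calls made with all 10 arrays were G0s2 and Kcnj8.

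The 10 genes called with every array included, whether or not the tissue was brown, were G0s2, Aatk, Enc1, A530053G22Rik and Ephx2 among the risen and Slc19a2, Podxl, Zfp647, Kcnj8 and Kitl among the fallen. In each of the 10 genes mice 82 and 95 lay on the side of their own group. Both arrays were part of the fit that chose these genes, so nothing is read from that. G0s2, an inhibitor of the triglyceride lipase of fat cells, had 12.56, 12.02, 12.55, 12.06 and 12.25 in the 5 vehicle arrays and 13.42, 12.82, 13.05, 13.34 and 13.58 in the 5 treated arrays. No treated value was below a vehicle value (change 0.95, SE 0.15, limma adjusted p = 0.0241). Slc19a2, a thiamine transporter, had 9.02, 8.94, 8.89, 9.03 and 8.87 in vehicle and 8.54, 8.36, 8.23, 8.21 and 8.03 in treated arrays (change -0.67, SE 0.08, limma adjusted p = 0.00284). Ephx2, the soluble epoxide hydrolase that breaks down lipid epoxides, rose from 12.97, 13.09, 13.03, 13.24 and 13.21 to 13.50, 13.62, 13.50, 13.48 and 13.42 (change 0.40, SE 0.07, limma adjusted p = 0.0296). Enc1, which encodes an actin-binding protein, changed by 0.69 (limma adjusted p = 0.0353) and Kitl, the ligand of the receptor Kit, by -0.48 (limma adjusted p = 0.0317). In this 10-array fit 2 of the 10 calls, A530053G22Rik and Slc19a2, held without each array in turn. With each array centred on its median instead, the fit called 4 genes, 3 higher and 1 lower.

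No thermogenic gene was called. In limma 0 of 22 measured genes passed in either fit (Ucp1, which set mice 82 and 95 aside, is one of them, and nothing is read from its test), with 2 higher and 3 lower at an unadjusted p under 0.05 in the 8 arrays (median change -0.055, 8 of 22 above 0, and -0.035 with all 10 arrays). Over all genes the median was 0.009, 9514 of 18193 lay above 0 and 2831 had an unadjusted p under 0.05 in limma. Cidea had a change of 0.04 (SE 0.06). The largest changes in the list were in Dio2, the deiodinase that makes active thyroid hormone, and Ppargc1a, a coactivator of mitochondrial genes. Dio2 had 9.77, 10.30, 10.84 and 10.24 in vehicle mice 83 to 86 and 10.17, 8.26, 9.74 and 9.41 in treated mice 91 to 94 (change -0.89, SE 0.36, limma adjusted p = 0.243, with all 10 arrays -0.58, adjusted p = 0.998). Ppargc1a had 10.27, 10.15, 10.80 and 10.51 in vehicle mice 83 to 86 and 10.48, 9.53, 9.53 and 9.42 in treated mice 91 to 94 (change -0.69, SE 0.25, limma adjusted p = 0.197, with all 10 arrays -0.54, adjusted p = 0.988). In both genes mouse 91 lay inside the vehicle range while the other 3 treated mice were below it. Leaving out each of the 8 arrays in turn gave Ppargc1a changes from -0.94 to -0.57 (limma adjusted p from 0.0467 to 0.406). The -0.94 and the 0.0467 came without mouse 91. Under the other settings, with all 8 arrays, its adjusted p in limma ran from 0.12 to 0.321. Elovl3, an elongase of brown fat lipids, had a change of 0.30 (limma adjusted p = 0.128, with all 10 arrays -0.21, adjusted p = 0.9998). Genes of the respiratory chain and ATP synthase (34 measured) and of the TCA cycle (16 measured) had 0 calls in limma, with 2 and 1 higher at an unadjusted p under 0.05. Their medians of 0.009 and 0.011 were turned or brought to 0 by median centring.

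A list of PPARγ and adipocyte genes differed little between the groups. Of its 19 measured genes limma called 0, with 3 higher and 1 lower at an unadjusted p under 0.05, 15 above 0 and a median of 0.07 (0.114 with all 10 arrays). On day 15 limma called 2 of them higher and 1 lower. Angptl4, a target of PPARs, and Acaa1b, which rises with PPAR activators in rodents, are outside this list and were called higher, as given below. Fabp4, the fatty acid binding protein of fat cells, had a change of 0.01, Cd36, a fatty acid transporter, of 0.07, and Lpl, lipoprotein lipase, of -0.03, each with an SE of 0.06 or 0.07. Adipoq had a change of 0.08, Slc2a4, the insulin-sensitive glucose transporter, of -0.04, and Pck1, which makes glycerol for triglycerides, of 0.05. With all 10 arrays the changes of these 6 genes were 0.02, 0.09, 0.00, 0.08, 0.01 and 0.08. Pparg itself had 12.24, 12.39, 12.27 and 12.48 in vehicle mice 83 to 86 and 11.93, 12.17, 11.60 and 12.05 in treated mice 91 to 94. The treated mice all lay below the vehicle mice, by a mean of 0.41, yet the gene missed the threshold (SE 0.10, limma adjusted p = 0.0575, with all 10 arrays -0.37, adjusted p = 0.449). It passed under 4 of the other settings tried (adjusted p 0.0275 to 0.0481). On day 15 its change was -0.49 and was called (limma adjusted p = 0.0104).

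Genes that handle fatty acids at the cell surface and in the droplet changed in a few members. Among 17 genes of fatty acid uptake and binding, 1 rose and 1 fell (median 0.043). The risen gene was Angptl4, a secreted inhibitor of lipoprotein lipase and a target of PPARs, with 12.16, 12.22, 12.27 and 12.61 in vehicle mice 83 to 86 and 12.69, 13.01, 12.89 and 12.82 in treated mice 91 to 94 (change 0.54, SE 0.12, 1.45-fold, limma adjusted p = 0.0410, with all 10 arrays 0.49, adjusted p = 0.762). All treated values were above all vehicle values. The fallen gene was Acsl3, an acyl-CoA synthetase that sits on growing lipid droplets, with 10.62, 10.59, 10.70 and 10.52 in vehicle mice 83 to 86 and 9.96, 9.40, 9.67 and 9.79 in treated mice 91 to 94 (change -0.90, SE 0.11, 1.87-fold, limma adjusted p = 0.000948, with all 10 arrays -0.68, adjusted p = 0.806). Its groups were 0.56 apart at their closest. The Acsl3 call held without each of the 8 arrays in turn, whereas that of Angptl4 was lost without vehicle mouse 83, 84 or 85 or troglitazone mouse 92, 93 or 94 and with the mean of its 2 probe sets, of which 1 moved at an unadjusted p under 0.05 in limma.

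Of 15 lipid droplet genes, G0s2 and Cideb rose and 0 fell (median 0.034). G0s2 had 12.02, 12.55, 12.06 and 12.25 in vehicle mice 83 to 86 and 13.42, 12.82, 13.05 and 13.34 in treated mice 91 to 94 in the 8 arrays (change 0.93, SE 0.15, 1.91-fold, limma adjusted p = 0.00757, with all 10 arrays 0.95, adjusted p = 0.0241), and it held without each array in turn. Among 13 genes of lipolysis and its control it was the 1 called gene. Cideb, of the family that fuses lipid droplets, went from 8.15, 8.37, 8.47 and 8.33 to 8.68, 8.74, 8.75 and 8.68 (change 0.39, SE 0.09, 1.31-fold, limma adjusted p = 0.0432, with all 10 arrays -0.18, adjusted p = 0.9998), and its call was lost without any 1 of 7 of the 8 arrays (all but troglitazone mouse 91), with median centring and with array weights. Its direction turned with all 10 arrays, where it was 9.47 in mouse 82 and 7.04 in mouse 95. Cidec, its relative of large white droplets, had 12.75, 12.69, 12.69 and 12.86 in vehicle mice 83 to 86 and 13.02, 13.11, 13.00 and 13.00 in treated mice 91 to 94, with no overlap but an adjusted p of 0.0605 in limma (change 0.29, with all 10 arrays 0.26, adjusted p = 0.988). Plin2, a droplet coat protein, had a change of -0.15 (limma adjusted p = 0.285, with all 10 arrays -0.03, adjusted p = 0.9998). Of 16 genes of glycerol and triglyceride synthesis limma called 0, with 3 higher and 2 lower at an unadjusted p under 0.05 (median 0.056).

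Fatty acid oxidation genes lay slightly higher in treated mice. In the mitochondrial list 17 of 21 were above 0 (median 0.113), with 8 higher and 1 lower at an unadjusted p under 0.05 in limma. In it 2 were called, both higher: Acads, the short-chain acyl-CoA dehydrogenase, and Eci2, an enoyl-CoA isomerase. Acads had 12.72, 12.80, 12.77 and 12.80 in vehicle mice 83 to 86 and 13.09, 13.09, 13.05 and 13.00 in treated mice 91 to 94 (change 0.28, SE 0.06, 1.22-fold, limma adjusted p = 0.0283, with all 10 arrays 0.33, adjusted p = 0.974). Eci2 had 11.99, 11.99, 11.98 and 11.95 in vehicle mice 83 to 86 and 12.16, 12.29, 12.17 and 12.27 in treated mice 91 to 94 (change 0.25, SE 0.05, 1.19-fold, limma adjusted p = 0.0218, with all 10 arrays 0.21, adjusted p = 0.954). The steps were small, but within each gene the arrays of a group lay within 0.13 of each other. Both calls were lost without vehicle mouse 83 or 85 or troglitazone mouse 92, 93 or 94. Pdk4, a kinase that turns cells from glucose to fatty acid burning, had a change of -0.17 (limma adjusted p = 0.379, with all 10 arrays 0.05, adjusted p = 0.9998).

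The peroxisomal list had 15 of 18 genes above 0 (median 0.14) and 2 called, both higher, with 6 higher and 0 lower at an unadjusted p under 0.05 in limma. Acaa1b, the peroxisomal thiolase that rises with PPAR activators in rodents, had 11.33, 10.78, 11.79 and 11.58 in vehicle mice 83 to 86 and 12.38, 11.97, 12.50 and 12.04 in treated mice 91 to 94 (change 0.85, SE 0.18, 1.80-fold, limma adjusted p = 0.0311, with all 10 arrays 0.92, adjusted p = 0.0784), and the lowest treated value was above the highest vehicle value. Acot8, a peroxisomal thioesterase, changed by 0.32 (limma adjusted p = 0.0448, with all 10 arrays 0.30, adjusted p = 0.954). The Acaa1b call was lost without vehicle mouse 83 or troglitazone mouse 93 or 94, and that of Acot8 without any array but vehicle mouse 84, with median centring and with array weights. Decr2, the peroxisomal dienoyl-CoA reductase, was chosen after its values were seen. It had 10.63, 10.75, 10.68 and 10.86 in vehicle mice 83 to 86 and 11.24, 11.31, 11.22 and 11.25 in treated mice 91 to 94 (change 0.52, SE 0.07, 1.43-fold, limma adjusted p = 0.00213, with all 10 arrays 0.39, adjusted p = 0.974) and held without each array in turn. Ehhadh, the peroxisomal bifunctional enzyme, had a change of 0.28 (limma adjusted p = 0.197, with all 10 arrays 0.28, adjusted p = 0.988). Bckdhb, a subunit of the enzyme that opens branched-chain amino acid breakdown, was the 1 called gene of 18 in that pathway (change 0.27, limma adjusted p = 0.0335, with all 10 arrays 0.26, adjusted p = 0.256), where 16 of 18 lay above 0. Its call was lost without vehicle mouse 83 or 85 or troglitazone mouse 92, 93 or 94.

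**Figure D2:**
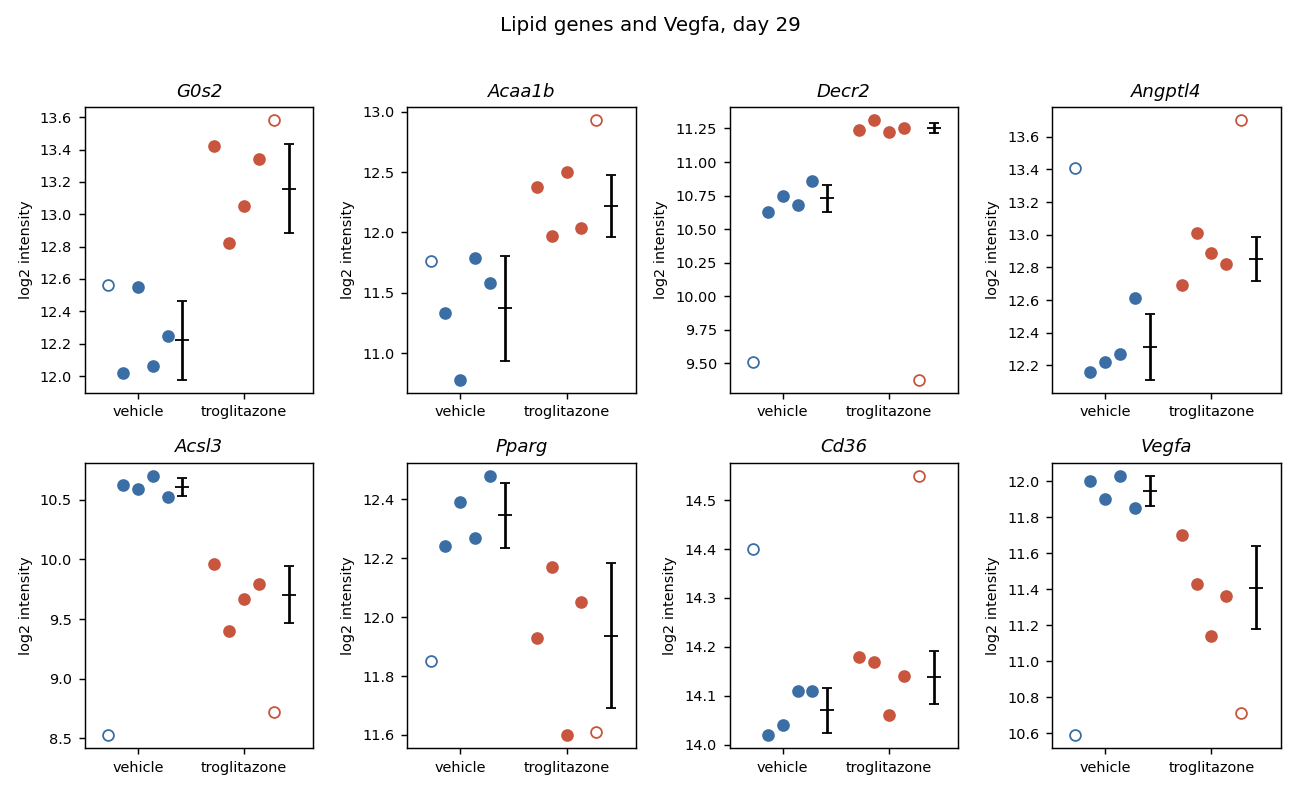
Log2 intensity of 7 lipid genes and Vegfa in each array, with the mean and SD of the 4 filled points per group and open circles for mice 82 and 95. The filled points of the groups are apart for G0s2, Acaa1b, Decr2, Angptl4, Acsl3, Pparg and Vegfa and overlap for Cd36.

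Sterol genes leaned the other way. Of 18 genes of cholesterol synthesis 2 fell and 0 rose (median -0.138, 6 of 18 above 0): Stard4, a cholesterol carrier, and Hsd17b7, an enzyme late in the pathway. Stard4 had 8.30, 8.48, 8.30 and 8.29 in vehicle mice 83 to 86 and 7.85, 7.52, 7.92 and 7.86 in treated mice 91 to 94 (change -0.55, SE 0.09, 1.47-fold, limma adjusted p = 0.00666, with all 10 arrays -0.55, adjusted p = 0.40) and held without each array. Hsd17b7 changed by -0.39 (limma adjusted p = 0.0271, with all 10 arrays -0.26, adjusted p = 0.680), a call lost without vehicle mouse 85 or troglitazone mouse 92, 93 or 94. With the mean of all its probe sets per gene neither was called. Of 17 genes of fatty acid synthesis limma called 0, with 1 lower at an unadjusted p under 0.05 (median -0.092).

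Endothelial genes changed in both directions. Of 31 endothelial markers 3 fell and 1 rose (median -0.075, 10 of 31 above 0), with 6 higher and 7 lower at an unadjusted p under 0.05 in limma. The general markers Pecam1 and Kdr had changes of -0.04 (SE 0.10, limma adjusted p = 0.883, with all 10 arrays -0.05, adjusted p = 0.9998) and -0.14 (SE 0.11, limma adjusted p = 0.556, with all 10 arrays -0.13, adjusted p = 0.979). The mean of all 31 markers was 9.34, 9.55, 9.40 and 9.54 in vehicle mice 83 to 86 and 9.62, 9.45, 9.35 and 9.34 in treated mice 91 to 94, so the groups overlapped. In a tissue measured in bulk, fewer cells of a type and less RNA per cell cannot be told apart.

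The risen member was Cldn5, a tight junction protein of endothelium. It had 9.63, 9.86, 9.82 and 9.88 in vehicle mice 83 to 86 and 11.17, 10.77, 10.86 and 10.53 in treated mice 91 to 94 (change 1.04, SE 0.20, 2.05-fold, limma adjusted p = 0.0189, with all 10 arrays 0.90, adjusted p = 0.767). Every treated mouse was above every vehicle mouse, and the white-fat-like arrays of mice 82 and 95 were higher still, at 12.04 in mouse 82 and 12.39 in mouse 95. Its call was lost without vehicle mouse 83 or troglitazone mouse 93. Rbp7, a cellular retinol-binding protein of fat capillaries, had 10.63, 10.79, 10.88 and 10.87 in vehicle mice 83 to 86 and 12.12, 12.07, 11.80 and 11.91 in treated mice 91 to 94, the rise with the smallest adjusted p in the 8 arrays (change 1.19, SE 0.11, 2.27-fold, limma adjusted p = 6.70e-05, with all 10 arrays 0.98, adjusted p = 0.160). Its groups were 0.92 apart at their closest. Further endothelial genes were chosen after their values were seen. Btnl9, a butyrophilin-like protein of capillary endothelium, had 11.16, 11.22, 11.60 and 11.50 in vehicle mice 83 to 86 and 12.22, 11.96, 12.20 and 12.12 in treated mice 91 to 94 (change 0.76, SE 0.11, 1.69-fold, limma adjusted p = 0.00304, with all 10 arrays 0.71, adjusted p = 0.449), Gpr182, a receptor of microvascular endothelium, rose by 0.69 (limma adjusted p = 0.00106, with all 10 arrays 0.60, adjusted p = 0.441) and Lama4, a laminin chain of vessel basement membrane, by 0.64 (limma adjusted p = 0.00875, with all 10 arrays 0.60, adjusted p = 0.477). Smad6, an inhibitor of BMP signalling, rose by 0.89 (limma adjusted p = 0.0227, with all 10 arrays 0.82, adjusted p = 0.0724), a call lost without vehicle mouse 83 or 85 or troglitazone mouse 93 or 94, and the calls of Rbp7, Btnl9, Gpr182 and Lama4 held without each array in turn.

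Thbd, thrombomodulin, the anticoagulant receptor of the vessel lining, was the fall with the smallest adjusted p. It had 10.50, 10.48, 10.41 and 10.42 in vehicle mice 83 to 86 and 9.64, 9.71, 9.36 and 9.29 in treated mice 91 to 94 (change -0.95, SE 0.09, 1.93-fold, limma adjusted p = 4.63e-05, with all 10 arrays -0.87, adjusted p = 0.867). The 4 vehicle values spanned 0.10 and the highest treated value was 0.70 below them. Thbd was 12.55 in mouse 82 and 11.99 in mouse 95. Pcdh12, a protocadherin of endothelial junctions, had 8.42, 8.61, 8.41 and 8.40 in vehicle mice 83 to 86 and 7.82, 7.45, 7.32 and 7.43 in treated mice 91 to 94 (change -0.96, SE 0.12, 1.94-fold, limma adjusted p = 0.000948, with all 10 arrays -0.71, adjusted p = 0.106). Myct1, another gene of endothelium, had 9.55, 9.53, 9.63 and 9.75 in vehicle mice 83 to 86 and 8.82, 8.50, 8.78 and 8.52 in treated mice 91 to 94 (change -0.95, SE 0.11, 1.94-fold, limma adjusted p = 0.000452, with all 10 arrays -0.74, adjusted p = 0.134). Mouse 91 was the highest treated mouse in both and still below every vehicle mouse. Podxl, podocalyxin of the luminal surface, changed by -0.71 (limma adjusted p = 0.00910, with all 10 arrays -0.66, adjusted p = 0.0416). These 4 calls held without each of the 8 arrays in turn.

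The 3 fallen genes of the marker list were Sox7, Clec14a and Tek. Sox7, a transcription factor of endothelium, had 10.51, 10.24, 10.45 and 10.21 in vehicle mice 83 to 86 and 9.91, 9.64, 9.53 and 9.62 in treated mice 91 to 94 (change -0.67, SE 0.11, 1.60-fold, limma adjusted p = 0.00666, with all 10 arrays -0.53, adjusted p = 0.436) and held without each array in turn. Clec14a, a lectin of new vessels, changed by -0.49 (limma adjusted p = 0.0311, with all 10 arrays -0.58, adjusted p = 0.536) and Tek, the angiopoietin receptor, by -0.35 (limma adjusted p = 0.0418, with all 10 arrays -0.32, adjusted p = 0.447). In Tek mouse 91, at 9.55, lay inside the vehicle range of 9.54 to 9.67. The calls of Sox7 and Clec14a were lost with the mean of a gene's probe sets. The call of Clec14a was lost without vehicle mouse 85 or troglitazone mouse 93 or 94, and that of Tek without vehicle mouse 83, 85 or 86 or troglitazone mouse 92, 93 or 94. Of the genes chosen after their values were seen, Ackr3, a chemokine scavenging receptor, had 11.36, 11.70, 11.77 and 11.41 in vehicle mice 83 to 86 and 11.12, 10.48, 10.94 and 10.48 in treated mice 91 to 94 (change -0.81, SE 0.15, 1.75-fold, limma adjusted p = 0.0163, with all 10 arrays -0.72, adjusted p = 0.0933). Arhgef15 and Fgd5, guanine nucleotide exchange factors, changed by -0.57 (limma adjusted p = 0.0196, with all 10 arrays -0.46, adjusted p = 0.160) and -0.46 (limma adjusted p = 0.0323, with all 10 arrays -0.41, adjusted p = 0.325), Rhob, a small GTPase, by -0.65 (limma adjusted p = 0.0426, with all 10 arrays -0.63, adjusted p = 0.113) and Jam2, a junctional adhesion molecule, by -0.29 (limma adjusted p = 0.0436, with all 10 arrays -0.35, adjusted p = 0.0729). The calls of Ackr3 and Arhgef15 were lost without vehicle mouse 85 or troglitazone mouse 94, and that of Ackr3 also without mouse 92 and that of Arhgef15 without mouse 93. Fgd5 was lost without any array but vehicle mouse 86 and troglitazone mouse 91, Rhob without vehicle mouse 83, 84 or 86 or troglitazone mouse 93 or 94, and Jam2 without any array but vehicle mouse 84 and troglitazone mouse 91. Jam2 was also lost with quantile normalization and with the mean of its probe sets, and Rhob with array weights.

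**Figure D3:**
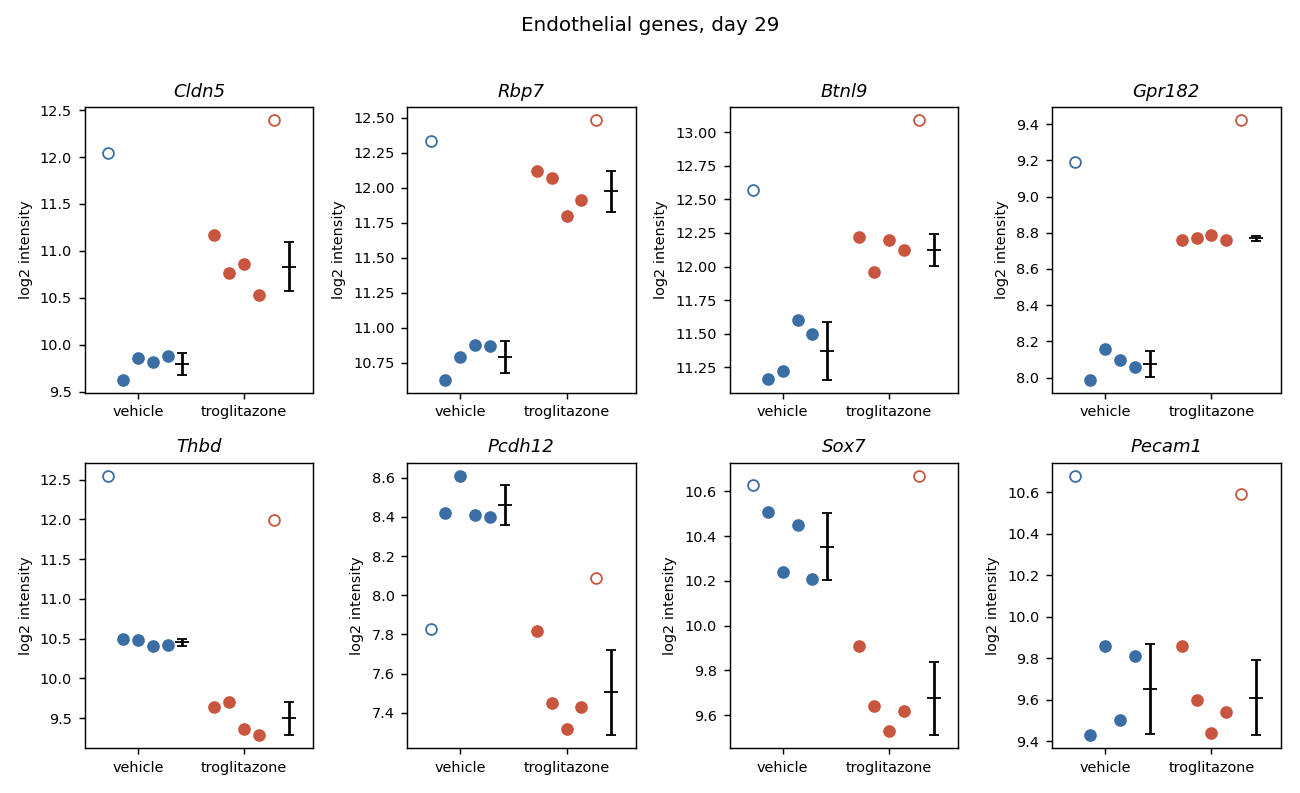
Log2 intensity of 8 endothelial genes in each array, with the mean and SD of the 4 filled points per group and open circles for mice 82 and 95. Cldn5, Rbp7, Btnl9 and Gpr182 are higher and Thbd, Pcdh12 and Sox7 lower in treated mice 91 to 94 than in vehicle mice 83 to 86, while the general marker Pecam1 overlaps.

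Growth factors of vessels, and the mural cells that wrap them, were next compared. Of 25 angiogenic growth factors and their receptors 2 fell and 0 rose (median -0.079): Vegfa, the main endothelial growth factor, and Pdgfb, by which endothelium recruits pericytes. Vegfa had 12.00, 11.90, 12.03 and 11.85 in vehicle mice 83 to 86 and 11.70, 11.43, 11.14 and 11.36 in treated mice 91 to 94 (change -0.54, SE 0.11, 1.45-fold, limma adjusted p = 0.0213, with all 10 arrays -0.40, adjusted p = 0.908), so all treated mice were below all vehicle mice. Pdgfb had 9.88, 9.98, 10.02 and 9.94 in vehicle mice 83 to 86 and 9.44, 9.53, 9.15 and 9.25 in treated mice 91 to 94 (change -0.61, SE 0.12, 1.53-fold, limma adjusted p = 0.0204, with all 10 arrays -0.57, adjusted p = 0.0739), also without overlap. Without vehicle mouse 85 or troglitazone mouse 93 or 94 neither was called, and Vegfa also needed vehicle mouse 83 and troglitazone mouse 92. Among 28 hypoxia genes, of which Vegfa is one, the same gene was the 1 called (median -0.091, 7 of 28 above 0). Hif1a, the oxygen-regulated transcription factor, had a change of -0.20 (limma adjusted p = 0.166, with all 10 arrays -0.09, adjusted p = 0.988) and Adm, adrenomedullin, of 0.10 (limma adjusted p = 0.855, with all 10 arrays 0.05, adjusted p = 0.9998).

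Pericyte and smooth muscle markers lay lower in treated mice in 12 of 14 genes (median -0.283), and 2 of them were called, both lower. Kcnj8, a potassium channel of pericytes, had 9.94, 9.93, 10.11 and 9.92 in vehicle mice 83 to 86 and 9.51, 9.41, 9.31 and 9.51 in treated mice 91 to 94 (change -0.54, SE 0.10, 1.45-fold, limma adjusted p = 0.0128, with all 10 arrays -0.52, adjusted p = 0.0416). Rgs5, a regulator of G-protein signalling in pericytes, had 13.29, 13.26, 13.26 and 13.04 in vehicle mice 83 to 86 and 12.94, 12.70, 12.80 and 12.84 in treated mice 91 to 94 (change -0.39, SE 0.08, 1.31-fold, limma adjusted p = 0.0213, with all 10 arrays -0.35, adjusted p = 0.0848). The treated values were below all vehicle values in both. At an unadjusted p under 0.05 in limma 7 of the 14 markers were lower and 0 higher. The mean of the 14 markers was 9.79, 9.35, 9.69 and 9.51 in vehicle mice 83 to 86 and 9.36, 9.29, 9.27 and 9.29 in treated mice 91 to 94. The list thus overlapped in mouse 91 and vehicle mouse 84 alone, and vehicle mice 83 and 85 were the highest of their group both here and in muscle markers. Treated mice 92 and 93, at 12.48 and 12.47 in muscle markers, were at 9.29 and 9.27 here, and the part of muscle RNA in the list was not tested. The call of Kcnj8 was lost without troglitazone mouse 93, and that of Rgs5 without vehicle mouse 83 or 85 or troglitazone mouse 92, 93 or 94.

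No gene of the proliferation list was called. Of 30 cell cycle and DNA replication genes limma called 0 (median 0.016, a sign that quantile normalization turned), and 3 had an unadjusted p under 0.05 in limma, 2 higher and 1 lower. Mki67, a marker of dividing cells, had 5.74, 5.93, 6.07 and 6.09 in vehicle mice 83 to 86 and 5.92, 5.90, 6.00 and 5.38 in treated mice 91 to 94 (change -0.16, SE 0.28). Of the 30 genes 4 lay above the array median in all 8 arrays, so most of the list was dim here. Of 13 D-type cyclins and kinase inhibitors limma called 0, with 2 higher and 2 lower at an unadjusted p under 0.05. Ccnd1, cyclin D1, had a change of -0.14 (limma adjusted p = 0.525, with all 10 arrays -0.23, adjusted p = 0.988). Cdkn1a, the kinase inhibitor p21, had 10.76, 11.70, 11.13 and 11.20 in vehicle mice 83 to 86 and 11.68, 12.16, 12.00 and 11.68 in treated mice 91 to 94, with the groups overlapping through vehicle mouse 84 (change 0.68, SE 0.23, limma adjusted p = 0.160, with all 10 arrays 0.78, adjusted p = 0.236). Cks2, a partner of cell cycle kinases named here only after its values were known, rose by 0.81 (limma adjusted p = 0.0439, with all 10 arrays 0.67, adjusted p = 0.344), a call lost without any array but vehicle mice 84 and 86, with the mean of its probe sets and with array weights. Of 13 p53 targets limma called 0, with 1 higher and 2 lower at an unadjusted p under 0.05 (median -0.114).

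The matrix, fibroblast, macrophage and neutrophil lists had medians above 0, and vehicle mice 83 and 85 were the lowest of their group in them. Of 32 collagen and matrix genes 29 were above 0 (median 0.346) and 1 was called: Lox, which cross-links collagen, with 8.50, 9.06, 8.42 and 9.11 in vehicle mice 83 to 86 and 9.60, 9.58, 9.54 and 9.20 in treated mice 91 to 94 (change 0.71, SE 0.14, 1.64-fold, limma adjusted p = 0.0213, with all 10 arrays 0.52, adjusted p = 0.770). Its treated values were all above the vehicle values, the closest pair being mouse 94 and vehicle mouse 86. The call was lost without vehicle mouse 83 or 85 or troglitazone mouse 92 or 93. At an unadjusted p under 0.05 in limma 18 of the 32 genes were higher and 0 lower. The mean of the 32 genes was 10.02, 10.23, 9.74 and 10.46 in vehicle mice and 10.52, 10.57, 10.52 and 10.36 in treated mice. Macrophage markers had 21 of 24 above 0 (median 0.468) and 0 called, with 11 at an unadjusted p under 0.05 in limma. Over all genes 2831 of 18193 had such a p. Adgre1, a surface antigen of mouse macrophages, had 7.43, 7.92, 7.24 and 7.88 in vehicle mice 83 to 86 and 7.87, 8.44, 8.18 and 7.96 in treated mice 91 to 94 (change 0.50, limma adjusted p = 0.160, with all 10 arrays 0.31, adjusted p = 0.954). Fibroblast and preadipocyte markers had 13 of 13 above 0 (median 0.27) and 0 called, with 4 at an unadjusted p under 0.05 in limma. Neutrophil and mast cell markers had 12 of 12 above 0 (median 0.398) and 0 called, with 4 at an unadjusted p under 0.05 in limma. Their mean was 6.35, 6.85, 6.33 and 6.86 in vehicle mice 83 to 86 and 7.30, 7.47, 6.83 and 6.93 in treated mice 91 to 94, so the groups overlapped. Of these 12 genes 1 lay above the array median in all 8 arrays, so most of the list was dim. Above that median in all 8 arrays lay 12 of 24 macrophage, 6 of 13 fibroblast and 27 of 32 matrix genes. With all 10 arrays the matrix, macrophage, fibroblast and neutrophil lists had medians of 0.186, 0.195, 0.158 and 0.226, and on day 15 of -0.045, -0.041, -0.155 and -0.138. Other immune lists lay near the median of all genes: lymphocyte markers at -0.001 (14 genes), interferon response genes at -0.006 (16 genes) and inflammatory cytokines and adhesion molecules at 0.035 (21 genes), with 0 called and 0 at an unadjusted p under 0.05 in limma. In these lists 1 of 14, 7 of 16 and 3 of 21 genes lay above the array median in all 8 arrays. Most members were thus dim, which limits what the absence of calls can show.

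Retnla, Apod, Ecm1 and Qpct were among the 10 largest rises without overlap. Retnla, a secreted protein of adipose tissue and of alternatively activated macrophages, had 9.90, 11.30, 10.08 and 11.28 in vehicle mice 83 to 86 and 12.12, 12.51, 12.03 and 11.59 in treated mice 91 to 94 (change 1.42, SE 0.31, 2.68-fold, limma adjusted p = 0.0343, with all 10 arrays 1.01, adjusted p = 0.900), the highest change of all called genes. It was 13.95 in mouse 82 and 13.31 in mouse 95, where white fat genes were high, and its call was lost without vehicle mouse 83 or 85 or troglitazone mouse 92 or 93 and with trended and robust eBayes. Apod, a lipid-carrying lipocalin, had 8.49, 8.02, 7.75 and 9.05 in vehicle mice 83 to 86 and 10.20, 9.75, 9.47 and 9.47 in treated mice 91 to 94 (change 1.39, SE 0.25, 2.63-fold, limma adjusted p = 0.0126, with all 10 arrays 0.78, adjusted p = 0.925) and Ecm1, a matrix protein, had 8.78, 9.12, 7.99 and 9.21 in vehicle mice 83 to 86 and 9.68, 9.97, 9.65 and 9.55 in treated mice 91 to 94 (change 0.94, SE 0.22, 1.91-fold, limma adjusted p = 0.0472, with all 10 arrays 0.54, adjusted p = 0.962). Both had vehicle mouse 85 lowest, as the macrophage and matrix lists did. The part of macrophage or stromal content in these 3 changes was not tested. Qpct, an enzyme that cyclises N-terminal glutamine, had 5.88, 6.21, 6.03 and 6.38 in vehicle mice 83 to 86 and 7.26, 7.17, 6.96 and 6.93 in treated mice 91 to 94 (change 0.96, SE 0.13, 1.94-fold, limma adjusted p = 0.00213, with all 10 arrays 0.60, adjusted p = 0.794). The calls of Apod and Qpct held without each of the 8 arrays, and that of Ecm1 was lost without any array but vehicle mice 84 and 86. Of the genes chosen after their values were seen, Ccl24, a chemokine for eosinophils, rose by 0.68 (limma adjusted p = 0.0498, with all 10 arrays 0.37, adjusted p = 0.954), Ltc4s, leukotriene C4 synthase, by 0.61 (limma adjusted p = 0.0213, with all 10 arrays 0.61, adjusted p = 0.962) and Fbln5, an elastic fibre protein, by 0.44 (limma adjusted p = 0.0362, with all 10 arrays 0.21, adjusted p = 0.9998). All 3 were lost without vehicle mouse 83 or 85 or troglitazone mouse 92 or 93, and Ccl24 also without mouse 91 or 94. Ccl24 and Fbln5 were also lost with the mean of a gene's probe sets.

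**Figure D4:**
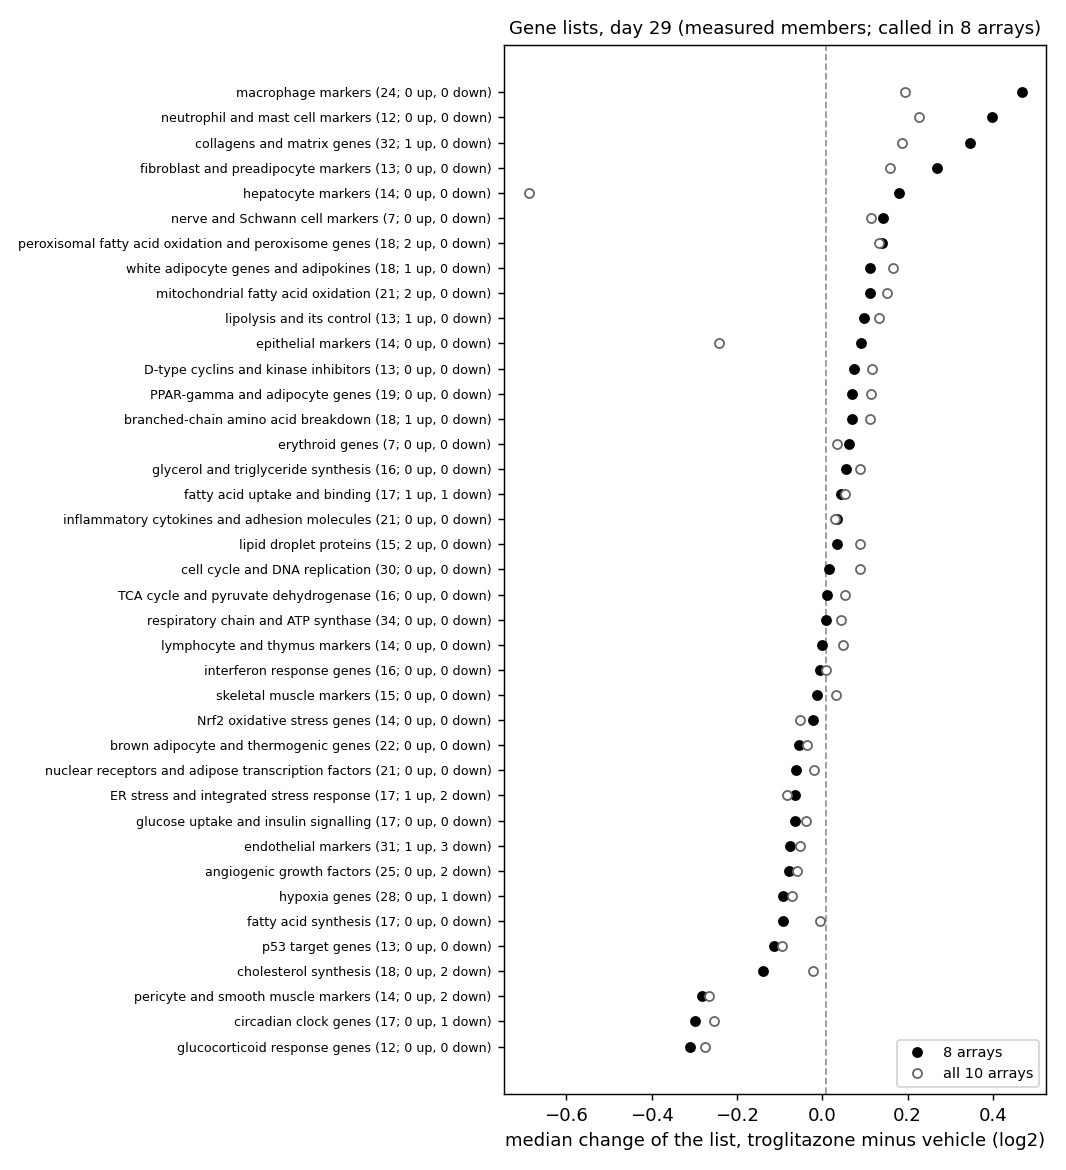
Median change of each of the 39 gene lists on day 29, with filled circles for the 8 arrays with high Ucp1, open circles for all 10 and a dashed line at the median of all genes in the 8 arrays. The labels give the members measured and those called in the 8 arrays, and the macrophage, neutrophil, matrix and fibroblast lists lie far right of the dashed line while the pericyte, clock and glucocorticoid lists lie left of it.

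The clock and stress lists each held called genes. Dbp, a transcription factor at the output of the circadian clock, had 11.32, 10.51, 11.02 and 11.22 in vehicle mice 83 to 86 and 9.31, 9.57, 8.79 and 9.94 in treated mice 91 to 94 (change -1.62, SE 0.36, 3.07-fold, limma adjusted p = 0.0389, with all 10 arrays -1.37, adjusted p = 0.169), the lowest change of all called genes. Vehicle mouse 84 was the lowest vehicle mouse and still above every treated mouse. Of 17 clock genes 1 was called and 3 lay above 0 (median -0.298), with 1 higher and 7 lower at an unadjusted p under 0.05 in limma. The call of Dbp was lost without any array but vehicle mouse 84, with trended and robust eBayes and with array weights, and the sources used here do not give the hour of death. Of 17 genes of endoplasmic reticulum stress and the integrated stress response 2 fell and 1 rose (median -0.065). Trib3, a pseudokinase induced by that response, had 8.23, 8.15, 8.11 and 8.16 in vehicle mice 83 to 86 and 7.56, 7.84, 7.57 and 7.50 in treated mice 91 to 94 (change -0.54, SE 0.08, 1.46-fold, limma adjusted p = 0.00528, with all 10 arrays -0.47, adjusted p = 0.0739), Ddit3, the transcription factor CHOP, changed by -0.59 (limma adjusted p = 0.0218, with all 10 arrays -0.43, adjusted p = 0.401) and Asns, asparagine synthetase, had 11.28, 11.35, 11.40 and 11.50 in vehicle mice 83 to 86 and 11.70, 11.84, 11.71 and 11.82 in treated mice 91 to 94 (change 0.39, SE 0.07, 1.31-fold, limma adjusted p = 0.0126, with all 10 arrays 0.38, adjusted p = 0.305). The calls of Trib3 and Asns held without each array, and that of Ddit3 was lost without vehicle mouse 83 or 85 or troglitazone mouse 93 or 94. Glucocorticoid response genes had 0 of 12 called (median -0.311), with 6 at an unadjusted p under 0.05 in limma, 5 of them lower.

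The other large changes came from genes of several kinds. Gramd1b, which moves cholesterol from the plasma membrane, had 6.87, 6.88, 7.22 and 7.66 in vehicle mice 83 to 86 and 7.87, 8.65, 8.63 and 8.28 in treated mice 91 to 94 (change 1.20, SE 0.23, 2.29-fold, limma adjusted p = 0.0196, with all 10 arrays 0.99, adjusted p = 0.680). Tmem86a, a hydrolase of lysoplasmalogens, had 9.10, 9.33, 9.38 and 9.53 in vehicle mice 83 to 86 and 10.51, 10.19, 10.76 and 10.55 in treated mice 91 to 94 (change 1.17, SE 0.14, 2.24-fold, limma adjusted p = 0.000486, with all 10 arrays 0.96, adjusted p = 0.237), with a gap of 0.66 between the groups. Bhlhb9 had 8.98, 8.68, 8.83 and 9.27 in vehicle mice 83 to 86 and 10.24, 9.86, 10.20 and 10.24 in treated mice 91 to 94 (change 1.19, SE 0.20, 2.29-fold, limma adjusted p = 0.00722, with all 10 arrays 1.01, adjusted p = 0.160). Vapb, a tether of the endoplasmic reticulum, changed by 0.99 (limma adjusted p = 0.0384, with all 10 arrays 1.18, adjusted p = 0.236). Among the fallen, Orm3, of the orosomucoid acute-phase family, had 9.76, 10.27, 10.12 and 10.25 in vehicle mice 83 to 86 and 9.26, 8.42, 8.48 and 8.76 in treated mice 91 to 94 (change -1.37, SE 0.16, 2.59-fold, limma adjusted p = 0.000461, with all 10 arrays -1.26, adjusted p = 0.0524). Its probe set may share signal with the near-identical Orm1 and Orm2, so the value is uncertain as to the gene. Slc20a1, a phosphate transporter, changed by -0.93 (limma adjusted p = 0.000778, with all 10 arrays -0.69, adjusted p = 0.548), Slco4a1, an organic anion transporter, by -0.92 (limma adjusted p = 0.00452, with all 10 arrays -0.68, adjusted p = 0.925) and Mtss1, which links actin and membranes, by -0.87 (limma adjusted p = 0.00452, with all 10 arrays -0.83, adjusted p = 0.0557). Zfp979, a zinc finger gene, changed by -0.82 (limma adjusted p = 0.0108, with all 10 arrays -0.69, adjusted p = 0.604). Without each array in turn all of these calls held but those of Gramd1b, lost without vehicle mouse 83 or troglitazone mouse 92 or 93, and Vapb, lost without vehicle mouse 84 or 85 or troglitazone mouse 92, 93 or 94 and with the mean of its probe sets. Of the 3 probe sets for Vapb and of the 3 for Slc20a1, 1 each moved with an unadjusted p under 0.05 in limma.

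Brown fat of day 15, from other mice of the same study (5 vehicle, 5 treated, all with high Ucp1), gave 173 called genes (0.951%), 131 higher and 42 lower. Of the 198 genes called on day 29 in the 8 arrays, 49 risen and 22 fallen genes were also called on day 15 in the same direction and 0 in the other. The sign was the same on day 15 in 190 of the 198, against 63.1% of all genes. On day 15 G0s2 changed by 0.95 (limma adjusted p = 0.00188), Rbp7 by 1.18 (limma adjusted p = 1.30e-05), Cldn5 by 1.52 (limma adjusted p = 0.000207) and Thbd by -0.71 (limma adjusted p = 0.000117). Day 15 changes were small in Qpct (0.02), Tek (-0.05), Ecm1 (-0.05) and Retnla (0.15), and Apod changed by -0.37 (limma adjusted p = 0.674). No difference between the days passed the test: 0 genes were called by limma with all arrays (207 of 18193 at an unadjusted p under 0.05) and 0 without mice 82 and 95 (877 of 18193 at an unadjusted p under 0.05).

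**Figure D5:**
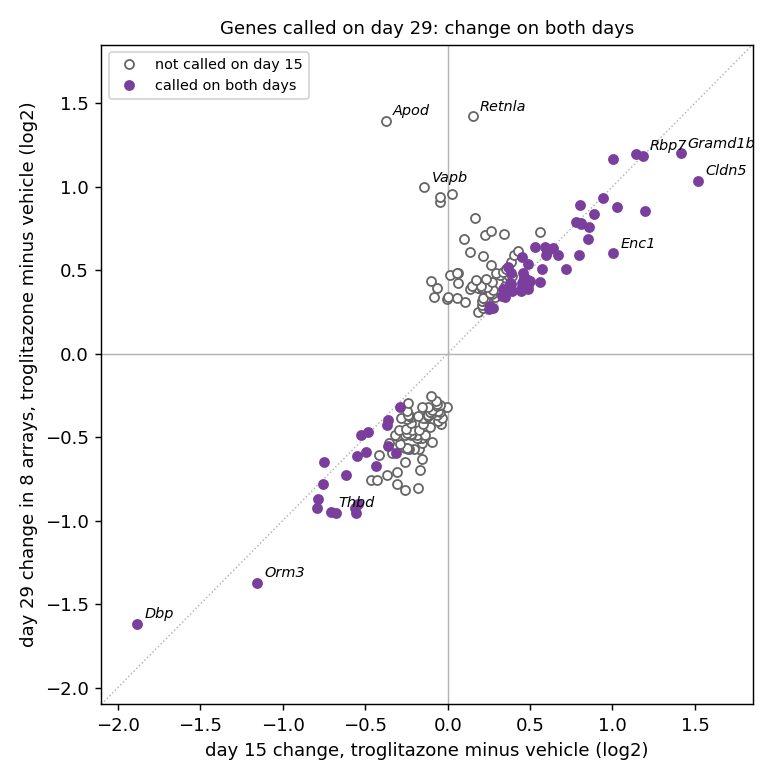
Change on day 15 (horizontal) and on day 29 in the 8 arrays (vertical), in log2 units, for the 198 genes called on day 29, with filled circles for the 71 called on both days and a dotted line where the changes are equal. All 91 fallen genes lie below 0 on both days, and Apod, Retnla and Vapb lie far from the dotted line.

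Liver of the same study and day had 21 called genes (0.115%), and 0 of them were among the 198 of brown fat. The difference between the 2 tissues' changes was called for 49 genes (0.269%) without mice 82 and 95, of which 26 were among the 198, and for 3 genes with all arrays. That difference holds the same brown fat change that chose the 198, so nothing is read from the overlap of 26. The difference was called for Thbd, with -0.95 in brown fat and 0.45 in liver (limma adjusted p = 0.000391 for the difference), for Rbp7, with 1.19 and -0.14 (limma adjusted p = 0.0103), and for Angptl4, with 0.54 and -0.53 (limma adjusted p = 0.0428). The difference was also called for Cd36, which had a change of 0.07 in brown fat and of 1.75 in liver (limma adjusted p = 0.00182 for the difference). G0s2 changed by 0.93 in brown fat and 0.76 in liver, a difference that did not pass (limma adjusted p = 0.969).

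Promoters of the called genes were searched for the letters of the direct repeat that PPARγ binds with the retinoid X receptor, AGGNCANAGGNCA, on both strands of the 300 bases around each RefSeq start (250 before, 50 after; GRCm38.p6). It occurred at 122 of 27025 genes (0.451%), at 0 of the 85 risen and at 0 of the 66 fallen genes with a promoter in that table. This says only that these letters are not in this window.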

How the data were processed

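RNA was measured on Affymetrix mouse arrays, 1 per mouse and tissue, from Trizol-extracted total RNA, per the labels' protocols. The deposited values are linear intensity per probe set, made by the authors with RMA (robust multi-array averaging) per the submitters' processing notes. Neither the RMA version nor the arrays processed together are stated in the sources used here. The intensity ran from 7.44 to 39426 and was turned into log2.

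Of 45101 probe sets, 34945 name a single gene, 932 name several and 9160 none, and 64 are controls. Only the first kind was used for genes. For a gene with several probe sets the one brightest on average over the 74 arrays was kept, which gave 18193 genes, 18032 of them with a RefSeq symbol. The platform annotation can be old.

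Arrays were grouped by tissue, agent and time in their labels. Genes were fitted with limma 3.58.1 in R 4.3.3 (lmFit, eBayes) on the 20 brown fat arrays of the troglitazone study (4 groups, days 15 and 29), and again on 18 arrays without those whose Ucp1 log2 value was below 10. Ucp1 was fitted with the other genes, and nothing is read from its test. Adjusted p-values are Benjamini-Hochberg over all genes, with a threshold of 0.05 and no filter on dim genes. Further contrasts compared the day 29 change with that of day 15 and with that of liver (40 arrays, or 38). Replicates are separate animals by their labels, and 0 pairs of arrays were identical. Brown fat and liver arrays with the same number come from the same mouse by the labels. In the 6 mice kept in both tissues their deviations from the group means correlated from -0.115 to 0.175, and a fit with the animal as a block was run. No scan date or batch appears in the labels.

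The members and the 39 gene lists (703 of 759 entries measured) were chosen with earlier results of these data known. The rule for named genes took up to 15 rises and 15 falls called in the 10-array fit and 10 and 10 in the 8-array fit, without overlap between groups, up to 4 called members of each list, and a fixed set whatever it showed. The text says where it names a gene that the rule does not. Lists are given by counts and medians, with no set test. Other settings were quantile normalization, a filter that drops the dimmer 50% of genes, arrays centred on their median, the mean of a gene's probe sets, trended and robust eBayes, array weights, a 1.5-fold threshold, the day 29 arrays alone and leaving out each array. The fit was tested on simulated data. Python 3.11.15 with pandas 2.3.3, numpy 2.4.6 and matplotlib 3.10.9 served for tables and plots.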

Additional observations from a re-analysis of the deposited data

Results flagged for a closer look

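Vehicle mouse 82 stood apart from its group of 5 in the mean of 21 thermogenic genes, Ucp1 left out (7.73, the others 11.12 to 11.29), of white adipocyte genes (11.67, the others 8.75 to 9.35), of hepatocyte markers (12.59, the others 6.74 to 7.19) and of epithelial markers (8.48, the others 6.35 to 6.80). Troglitazone mouse 95 stood apart in the same 21 thermogenic genes (7.84, the others 11.03 to 11.21), in white adipocyte genes (11.59, the others 8.99 to 9.39) and in skeletal muscle markers (6.45, the others 11.08 to 12.48). Of the 12 group means of the 6 marker lists tested this way, 7 held such an array.

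Within the groups of 4 high-Ucp1 arrays, 16 of 214 gene and group values had 1 array far from the other 3, where chance flags about 1 in 20. Among vehicle mice the outlying array was mouse 85 in Kcnj8 (10.11), Slco4a1 (9.48) and Lpl (14.56), mouse 84 in Pcdh12 (8.61), Stard4 (8.48) and Ppp1r15a (9.59), mouse 86 in Rgs5 (13.04) and Jam2 (10.22), and mouse 83 in Vezf1 (10.49). All of these were the highest of their group but that of Rgs5, which was the lowest. Among treated mice it was mouse 91 in Tek (9.55), Ppargc1a (10.48) and Bckdhb (12.92), mouse 94 in Lox (9.20), Adm (7.35) and Mki67 (5.38), and mouse 92 in Bhlhb9 (9.86). Tek and Ppargc1a were outlying on the high side and the other 5 on the low side.

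The day 29 change differed between brown fat and liver by limma's interaction test without mice 82 and 95 in 21 named genes. The brown fat change minus the liver change was above 0 in Enc1 (0.70), Ephx2 (0.44), Retnla (1.51), Apod (1.44), Gramd1b (1.35), Rbp7 (1.33), Tmem86a (1.21), Qpct (1.07), Ecm1 (1.19), Angptl4 (1.06), Cideb (0.52) and Btnl9 (0.90). It was below 0 in Kitl (-0.96), Pcdh12 (-0.80), Thbd (-1.40), Acsl3 (-1.11), Zfp979 (-1.06), Pdgfb (-1.02), Cd36 (-1.68), Rhob (-0.78) and Ackr3 (-0.96).

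Probe sets with no gene symbol, or with several, take no part in the comparisons of genes. When every probe set was tested in the 8 arrays, 193 of 45101 were called, and 32 of those belonged to the 10092 without a single symbol, 19 higher and 13 lower in treated mice.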

How the results depend on the processing

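The 10-array count of 10 called genes became 36 without the dimmer genes, 4 with median centring, 170 with array weights, 6 at a 1.5-fold threshold, 198 without arrays of low Ucp1 and 0 in limma with the 10 day 29 arrays alone, and ran from 2 to 74 with 1 array left out. The 8-array count of 198 became 379 without the dimmer genes, 66 at a 1.5-fold threshold and 19 with the 8 arrays alone, and ran from 52 to 403 with 1 array left out. It was 281, 217, 177, 295 and 193 with quantile normalization, median centring, mean probe sets, trended and robust eBayes and array weights. The difference between days had 0 called genes in limma under every setting run. The difference between tissues had 3 called genes, 3 with the animal as a replicate block, 0 with the 20 day 29 arrays alone, 49 without arrays of low Ucp1 (62 with the replicate block, chosen after seeing the data), and 2 to 30 with 1 array left out. The block changed no count of calls by over 1.5 times. Vehicle and troglitazone mice share no numbers, so no paired analysis was possible because each mouse belongs to 1 group in the comparisons within brown fat. Of 79 named genes called in the 8 arrays, 31 were called without each array in turn and 18 under every other setting but the fold threshold, 16 under both, and 0 changed sign among these settings. With all 10 arrays, a setting chosen after seeing the data for these genes, 10 of the 79 were called and 1 changed sign: Cideb, with a change of -0.18. The cause of these movements was not tested. The fits of the day 29 arrays alone have fewer residual degrees of freedom by construction. Few arrays per group, low Ucp1 in 2 of them, the missing detection flags and values near the top of the range limit what can be called.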

Other observations

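Further genes called in the 8 arrays, chosen after their values were seen, were of several kinds, and the change and adjusted p with all 10 arrays follow each. Retsat, which saturates retinol, had 12.33, 12.52, 12.33 and 12.67 in vehicle mice 83 to 86 and 12.68, 12.99, 12.82 and 12.79 in treated mice 91 to 94 (change 0.36, SE 0.08, 1.28-fold, limma adjusted p = 0.0364, with all 10 arrays 0.24, adjusted p = 0.962). Rdh9, a retinol dehydrogenase, had 4.91, 4.90, 4.28 and 5.03 in vehicle mice 83 to 86 and 5.77, 5.64, 5.35 and 5.86 in treated mice 91 to 94, at the dim end of the array (change 0.88, SE 0.18, 1.84-fold, limma adjusted p = 0.0227, with all 10 arrays 0.18, adjusted p = 0.9998). Hsd17b11, a dehydrogenase of lipid droplets, rose by 0.34 (limma adjusted p = 0.0213, with all 10 arrays 0.10, adjusted p = 0.9998), Mecr, an enoyl reductase of mitochondrial fatty acid synthesis, by 0.47 (limma adjusted p = 0.0213, with all 10 arrays 0.49, adjusted p = 0.899) and Tmem120a, a membrane protein linked to fat cell differentiation, by 0.41 (limma adjusted p = 0.0410, with all 10 arrays 0.42, adjusted p = 0.852). Car4, a carbonic anhydrase of capillaries, rose by 0.38 (limma adjusted p = 0.0299, with all 10 arrays 0.27, adjusted p = 0.511) and Prkcz, an atypical protein kinase C, by 0.73 (limma adjusted p = 0.0335, with all 10 arrays 0.49, adjusted p = 0.651). All 7 calls were lost without troglitazone mouse 92 or vehicle mouse 85, except those of Hsd17b11 without mouse 85, and 6 of them, all but Rdh9, also without vehicle mouse 83 or troglitazone mouse 93. Those of Retsat, Rdh9, Tmem120a, Car4 and Prkcz were also lost without troglitazone mouse 94, and those of Tmem120a and Prkcz without vehicle mouse 84. With the mean of a gene's probe sets Hsd17b11, Retsat and Prkcz were lost, with array weights Car4 and with median centring Tmem120a.

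Further genes called in the 8 arrays were lower in treated mice, and these too were chosen after their values were seen. Gas1, a membrane protein of growth arrest, had 11.28, 11.56, 11.47 and 11.26 in vehicle mice 83 to 86 and 10.74, 10.57, 10.72 and 10.63 in treated mice 91 to 94 (change -0.73, SE 0.13, 1.66-fold, limma adjusted p = 0.0156, with all 10 arrays -0.82, adjusted p = 0.0739), with every treated mouse below every vehicle mouse and a call that held without each array. Nfe2l2, the transcription factor of the oxidative stress response, had 11.32, 11.17, 11.07 and 11.30 in vehicle mice 83 to 86 and 10.91, 10.94, 10.91 and 10.83 in treated mice 91 to 94 (change -0.32, SE 0.06, 1.25-fold, limma adjusted p = 0.0246, with all 10 arrays -0.33, adjusted p = 0.0524). Pim1, a kinase, changed by -0.49 (limma adjusted p = 0.0311, with all 10 arrays -0.38, adjusted p = 0.998), Klf13, a Krüppel-like factor, by -0.47 (limma adjusted p = 0.0311, with all 10 arrays -0.38, adjusted p = 0.268) and Id1, a target of BMP signalling, by -0.53 (limma adjusted p = 0.0326, with all 10 arrays -0.54, adjusted p = 0.0903). Ppp1r15a, which restores translation after stress, changed by -0.46 (limma adjusted p = 0.0216, with all 10 arrays -0.43, adjusted p = 0.0739), Kcna5, a potassium channel, by -0.78 (limma adjusted p = 0.0169, with all 10 arrays -0.61, adjusted p = 0.330), Sema7a, a semaphorin, by -0.76 (limma adjusted p = 0.0432, with all 10 arrays -0.53, adjusted p = 0.572) and Vezf1, a zinc finger factor of endothelium, by -0.37 (limma adjusted p = 0.0483, with all 10 arrays -0.38, adjusted p = 0.340). Apart from Gas1, all of these calls were lost without troglitazone mouse 93 or 94. Further losses came without vehicle mouse 83 (Nfe2l2, Pim1, Sema7a, Vezf1), 84 (Pim1, Klf13, Id1), 85 (Pim1, Id1, Sema7a, Vezf1) or 86 (Klf13, Id1, Sema7a) and without troglitazone mouse 92 (Nfe2l2, Vezf1). With the mean of a gene's probe sets Klf13, Nfe2l2, Sema7a and Vezf1 were lost, and Sema7a also with array weights.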
